A study of Homo sapiens with 12 samples.

Results

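The 10 genes described here encode the TNF receptor-associated factors TRAF1 to TRAF6, the kinase TAK1 (gene symbol MAP3K7) and its binding proteins TAB1, TAB2 and TAB3. They were chosen by name, with earlier results of these data known, and each had 1 row among the 58735 genes of the count table. RNA was sequenced from HLE-B3 cells, a virally immortalised human lens epithelial line, in 4 groups of 3 libraries. The groups were WT cells untreated and collected at 0 h, WT cells exposed to 200 μM H2O2 for 12 h, ATG7 KO cells untreated and collected at 0 h, and ATG7 KO cells exposed to 200 μM H2O2 for 12 h. ATG7 KO cells carry a CRISPR/Cas9 disruption of ATG7, whose product conjugates the proteins that build the autophagosome, and were made by puromycin selection and picking of clones. Which clone, or how many, was sequenced is not stated in the sources used here, so genotype and clone cannot be told apart. Since the comparison for H2O2 is with cells at 0 h, the agent and 12 h in culture cannot be told apart either.

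TRAF proteins are cytoplasmic adaptors that bind the tails of TNF family receptors, or the MYD88-IRAK complex below interleukin-1 and Toll-like receptors. Most of them carry a RING domain, and TRAF6 together with UBC13 builds K63-linked ubiquitin chains. TAB2 and TAB3 are homologous zinc-finger proteins that bind such chains and bring TAK1 to them, while TAB1 binds TAK1 and promotes its activity. TAK1 then phosphorylates the IκB kinase complex and the MAP2Ks, which leads to NF-κB, JNK and p38 signalling.

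Sequencing yielded 15602183 to 17659496 gene counts per library, and the 10 genes held 176 to 8281 counts in a library. Libraries of 1 group correlated at a mean Pearson r of 0.980 or above in log2 CPM, except ATG7 KO untreated replicate 1, whose mean r with its group was 0.971. Values without that library are given beside the results whose calls it changed. ATG7 mRNA was not lower in ATG7 KO cells (3.55 ± 0.205 FPKM untreated against 2.55 ± 0.313 in WT; 2.19 ± 0.137 with H2O2 against 1.96 ± 0.0411; SD, n = 3), and gene counts do not read the edited bases. Of 14 lens epithelial markers, 5 had a mean above 1 FPKM in at least 1 group. These were PAX6 (highest group mean 1.27 FPKM, WT untreated), SIX3 (3.06, WT untreated), CRYAB (1.65, WT with H2O2), GJA1 (50.5, ATG7 KO with H2O2) and VIM (322, WT untreated). FOXE3 and CRYAA reached at most 3 counts and 1 count. None of 4 endothelial markers and 1 of 6 leukocyte markers (CD14) passed 1 FPKM. Of 7 fibroblast markers, 4 did, and their summed level was 623 to 655 FPKM in WT untreated, 360 to 512 in ATG7 KO untreated, 270.0 to 287 in WT with H2O2 and 247 to 257 in ATG7 KO with H2O2. DCN reached at most 2 counts, and COL1A1 made up most of the sum. LUM was at 9.52 FPKM in ATG7 KO against 0.168 in WT untreated and at 3.93 against 0.129 with H2O2, and PDGFRB was at 6.34 against 4.42 FPKM untreated and at 1.69 against 2.07 with H2O2. The summed lens epithelial markers, mostly VIM, were at 339 to 360 FPKM in WT untreated, 257 to 400.0 in ATG7 KO untreated, 339 to 359 in WT with H2O2 and 246 to 253 in ATG7 KO with H2O2. The summed leukocyte markers were at 0.822 to 1.19, 1.88 to 2.62, 1.51 to 1.99 and 1.39 to 1.46 FPKM in the same order, with CD3E at no more than 3 counts, and the part of these markers in the results below was not tested. In bulk RNA, a change in the number of cells that express a gene and a change in RNA per cell cannot be told apart.

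All 10 genes are protein coding, and their coordinates in the deposited table (GRCh38) equal those of GENCODE release 29. TRAF1 lies on chromosome 9 (120902393-120929173, minus strand) and TRAF4 on chromosome 17 (28743984-28750958, plus strand). TRAF5 lies on chromosome 1 (211326615-211374946, plus strand) and TAB3 on chromosome X (30827442-30975084, minus strand). These 4 genes responded differently to H2O2 in ATG7 KO and in WT cells, as described below. Their promoters are printed here for that reason, beside that of TRAF3, the only member whose window held an NF-κB consensus. Each is the stretch of 250 bases before a RefSeq start (GRCh38.p14), read 5′ to 3′ on the strand of the gene, and capitals mark a motif match.
TRAF1, chr9:120929172-120929421, minus strand: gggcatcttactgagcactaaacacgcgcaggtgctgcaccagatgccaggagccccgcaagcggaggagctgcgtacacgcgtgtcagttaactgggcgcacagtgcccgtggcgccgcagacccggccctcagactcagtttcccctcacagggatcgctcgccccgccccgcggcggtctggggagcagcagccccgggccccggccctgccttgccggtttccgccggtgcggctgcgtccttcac
TRAF4, chr17:28743761-28744010, plus strand: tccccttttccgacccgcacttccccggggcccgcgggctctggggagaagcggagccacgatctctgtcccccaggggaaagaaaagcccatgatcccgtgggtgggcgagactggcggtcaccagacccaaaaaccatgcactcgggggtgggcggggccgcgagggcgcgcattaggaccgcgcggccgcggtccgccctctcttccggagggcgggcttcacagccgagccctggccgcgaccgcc
TRAF5, chr1:211326385-211326634, plus strand: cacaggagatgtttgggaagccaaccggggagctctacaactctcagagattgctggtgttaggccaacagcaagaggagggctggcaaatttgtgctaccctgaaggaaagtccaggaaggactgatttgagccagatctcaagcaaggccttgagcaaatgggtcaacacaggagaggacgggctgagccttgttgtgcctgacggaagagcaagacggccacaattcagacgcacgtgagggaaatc
TAB3, chrX:30889255-30889504, minus strand: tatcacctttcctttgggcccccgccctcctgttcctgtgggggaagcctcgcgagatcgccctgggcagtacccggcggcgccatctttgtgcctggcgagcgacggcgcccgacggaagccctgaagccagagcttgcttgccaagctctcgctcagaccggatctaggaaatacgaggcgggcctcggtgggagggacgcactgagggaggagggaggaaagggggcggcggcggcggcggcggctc
TRAF3, chr14:102777199-102777448, plus strand: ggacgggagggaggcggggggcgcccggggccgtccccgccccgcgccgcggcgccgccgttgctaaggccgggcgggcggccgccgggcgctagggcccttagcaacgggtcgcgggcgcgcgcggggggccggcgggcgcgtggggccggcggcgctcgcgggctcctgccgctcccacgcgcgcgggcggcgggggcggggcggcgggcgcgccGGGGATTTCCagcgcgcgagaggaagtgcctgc
The RefSeq starts of TRAF1, TRAF3, TRAF4 and TRAF5 lie within 27 bases of the start in the deposited table, whereas that of TAB3 lies 85830 bases inside the gene.

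Both strands were searched for the NF-κB consensus by name, for the AP-1 site TGANTCA and for the core of the antioxidant response element, TGACNNNGC. Across 35116 RefSeq promoter windows of 250 bases, 9.96% held the NF-κB consensus, 6.57% the AP-1 site and 10.9% the antioxidant core. The capitals in the TRAF3 window mark the NF-κB consensus, whose first base lies 33 bases before the start. The windows of TAB1 and TAB2 each held 1 antioxidant core, at 68 and 243 bases before the RefSeq start, which for TAB2 lies 99071 bases from the start in the deposited table. No match to these letters lay in the windows of TRAF1, TRAF4, TRAF5 and TAB3. RefSeq has 3 starts each for TRAF1 and TRAF5 and 2 for TAB2, and only the start nearest to that of the deposited table was searched. For TRAF2 that nearest start lay 4604 bases away.

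In untreated WT cells TAB2 had the highest level of the 10 genes (33.4 ± 2.08 FPKM, SD, n = 3) and TRAF5 the lowest (2.67 ± 0.333 FPKM). Between them the order was TRAF2, TRAF1, MAP3K7, TRAF4, TRAF3, TAB1, TAB3 and TRAF6, and only the ranges of the neighbours TRAF4 and TRAF3 and of TRAF3 and TAB1 overlapped. With H2O2 the order in WT cells was led by TRAF1 and TRAF4, ahead of TAB2. In ATG7 KO cells with H2O2 it was led by TRAF4, followed by TAB2, TRAF1 and TAB3, with no overlap between neighbours in any of the 9 steps. In untreated ATG7 KO cells TAB2 and TRAF2 again stood first and second, and the ranges of 4 neighbouring pairs overlapped. The plot of FPKM by library shows these levels.

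**Figure D1:**
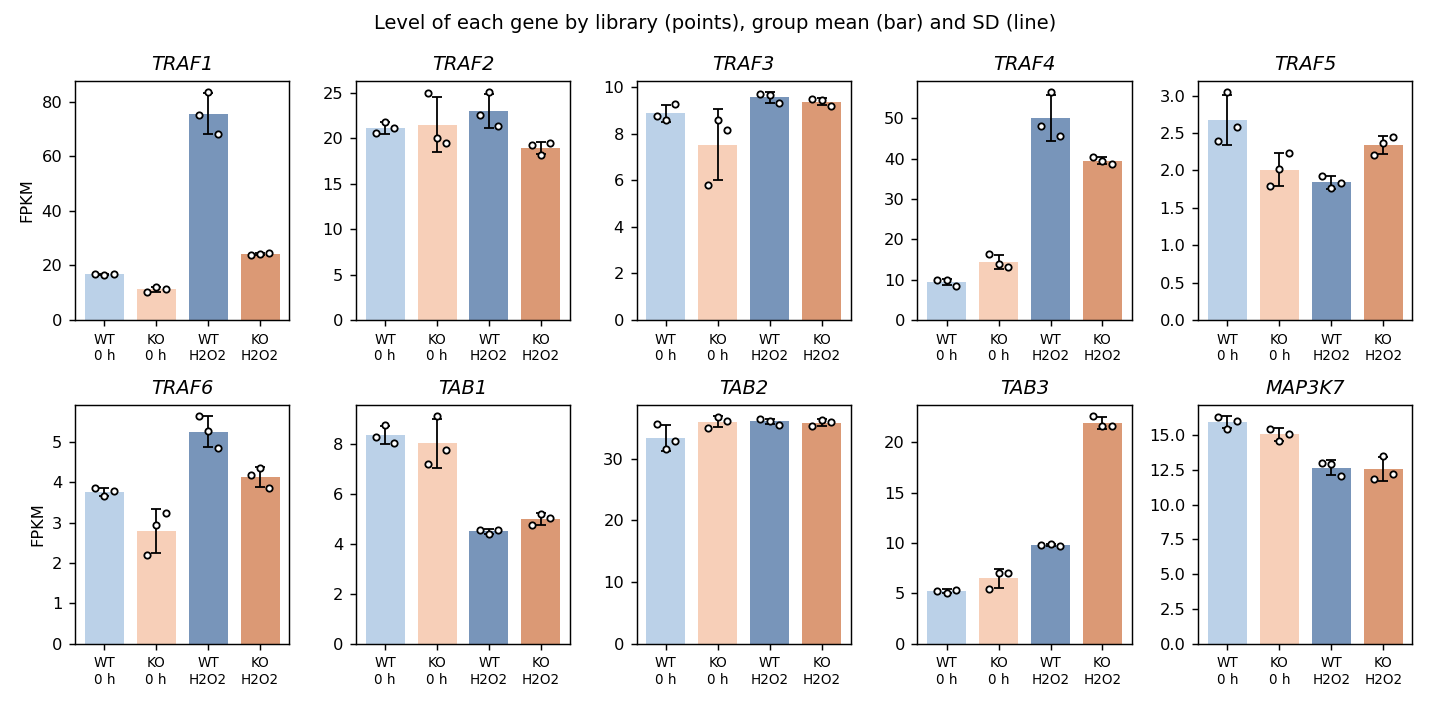
FPKM (y axis, linear, from 0) of each of the 10 genes in WT and ATG7 KO cells at 0 h and after 12 h of H2O2 (x axis). Points are libraries, bars the mean and lines the SD of 3 libraries. TRAF1 stands near 75.6 FPKM in WT with H2O2 and near 24.1 in ATG7 KO with H2O2, while TAB3 stands at 9.81 and 21.9.

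The first comparison asked how WT cells differed between 0 h and 12 h of H2O2. TRAF1, TRAF4, TAB3 and TRAF6 rose, and TAB1, TRAF5 and MAP3K7 fell. In all, 7 of the 10 genes passed an adjusted p of 0.01 (edgeR quasi-likelihood test, adjusted over all genes tested), 4 higher and 3 lower. Over the 15913 genes tested 61% passed, 30.9% higher and 30.1% lower. With the further thresholds of the study (a change above 1 on the log2 scale and above 1 FPKM), TRAF1 and TRAF4 passed, against 12.5% of all genes. With a correction for gene length, 9 of the 10 genes passed an adjusted p of 0.01, 6 higher and 3 lower, beside 9502 of 15913 genes.

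In ATG7 KO cells the same comparison gave TAB3, TRAF4 and TRAF1 as higher and TAB1 as lower. These 4 of 10 genes passed, 3 higher and 1 lower, where 26% of the 15475 genes tested passed, 13.6% higher and 12.4% lower. TAB3, TRAF4 and TRAF1 also passed the further thresholds, as did 11.2% of all genes. Without ATG7 KO untreated replicate 1, 7 of the 10 genes passed: TRAF3, TRAF6 and MAP3K7 were added. The count over all genes rose as well, to 9341 of 16002, 4768 higher and 4573 lower.

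The test of the difference between both H2O2 responses used all 12 libraries. TRAF1 and TRAF4 rose less in ATG7 KO than in WT cells, TAB3 rose more, and for TRAF5 the difference was positive. These 4 of 10 genes passed, 2 with a larger and 2 with a smaller value in ATG7 KO, where 14% of 16856 genes passed, 7.02% with a larger and 7.01% with a smaller value. For the other 6 genes the difference ranged from −0.30 (TRAF2) to 0.21 (TRAF3) on the log2 scale and did not pass. The plot of both responses sets them side by side, and each response rests on its own untreated libraries.

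**Figure D2:**
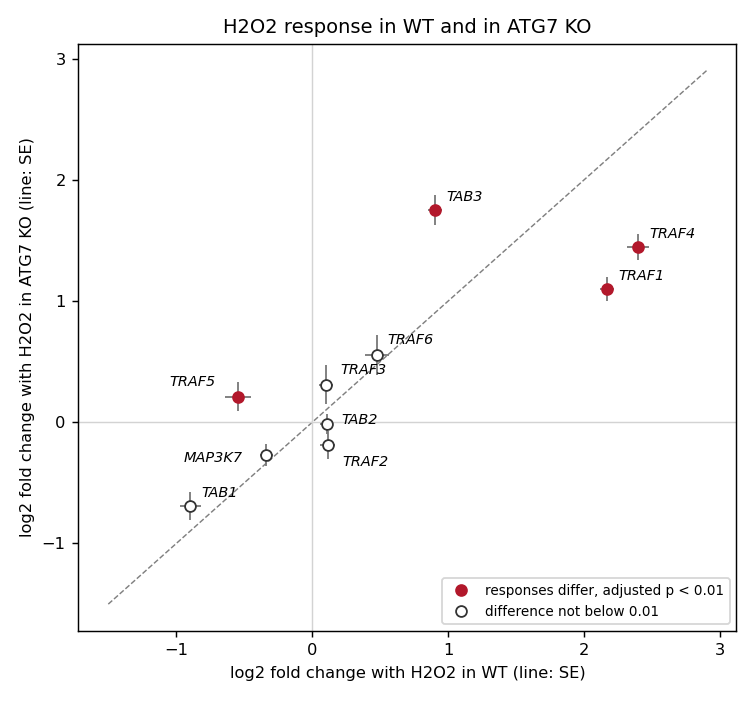
log2 fold change with H2O2 in WT cells (x axis) and in ATG7 KO cells (y axis), with SE as lines and equality as the dashed line. Filled points are the 4 genes whose responses differed at an adjusted p below 0.01. TRAF1 and TRAF4 lie below the dashed line, TAB3 and TRAF5 above it.

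Between ATG7 KO and WT cells that both received H2O2, TAB3 and TRAF5 were higher in ATG7 KO, and TRAF1, TRAF6, TRAF4 and TRAF2 were lower. Thus 6 of 10 genes passed, 2 higher and 4 lower, where 55.6% of the 15909 genes tested passed, 27.7% higher and 27.9% lower. TRAF1 and TAB3 passed the further thresholds, against 7.46% of all genes. With all 12 libraries in 1 fit, 2 of the 10 genes passed, TRAF1 and TAB3, where 4876 of the 16856 genes tested passed.

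Between untreated ATG7 KO and WT cells, TRAF1 alone passed, and it was lower in ATG7 KO. This was 1 of 10 genes, where 7.7% of the 15357 genes tested passed, 4.42% higher and 3.28% lower. None of the 10 passed the further thresholds under edgeR or DESeq2 (3.5% of all genes did under edgeR), and 4 of the 10 had an unadjusted p below 0.05 besides TRAF1. Over all genes tested with edgeR, 5048 of 15357 had an unadjusted p below 0.05. TRAF1 did not pass when any library other than ATG7 KO untreated replicate 1 was left out (adjusted p = 0.0166 to 0.0528). Without ATG7 KO untreated replicate 1, 5 genes passed: TRAF1 (−0.51) and TRAF5 (−0.33) were lower, and TRAF4 (0.52), TAB3 (0.43) and TAB2 (0.14) higher on the log2 scale. The count over all genes then was 5734 of 15848, 2891 higher and 2843 lower.

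**Figure D3:**
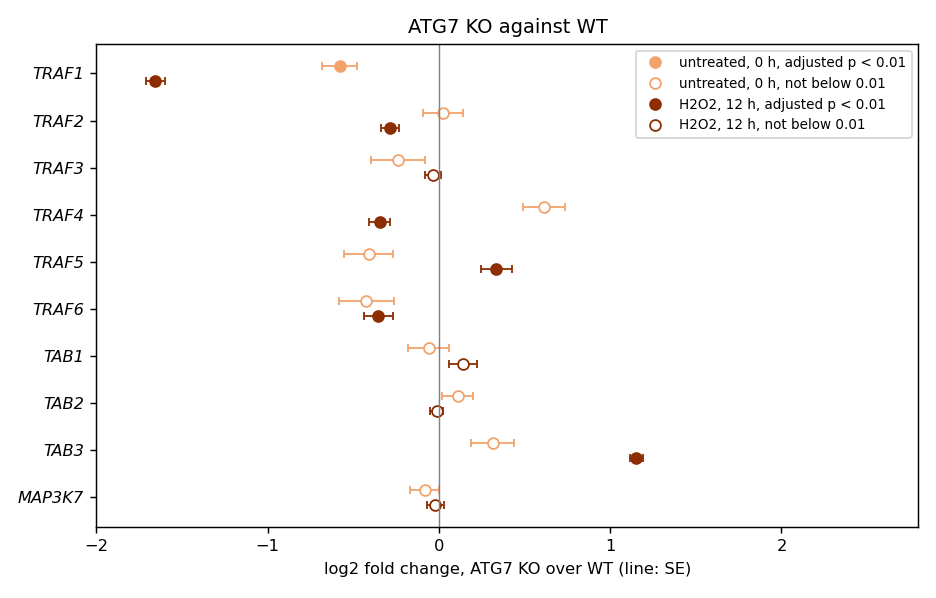
log2 fold change of ATG7 KO over WT (x axis) for the 10 genes, untreated at 0 h and after 12 h of H2O2, with SE as lines. Filled points passed an adjusted p of 0.01. With H2O2, TRAF1 lies at −1.66 and TAB3 at 1.15, and in untreated cells TRAF1 (−0.58) is the only filled point.

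TRAF1 lacks the RING domain of its relatives, binds TRAF2 and is a known NF-κB target gene. Its level was 16.8, 16.7 and 16.8 FPKM in the WT untreated libraries and 75.2, 83.4 and 68.2 FPKM with H2O2. In ATG7 KO it was 10.2, 12.3 and 11.2 FPKM untreated and 23.6, 24.3 and 24.4 FPKM with H2O2. The 4 groups did not overlap, and every ATG7 KO library with H2O2 lay far below every WT library with H2O2. With H2O2, TRAF1 was 3.15-fold lower in ATG7 KO than in WT cells (log2 fold change −1.66, SE 0.0566, adjusted p = 8.9e-13). It rose 4.50-fold with H2O2 in WT (2.17, SE 0.0532, adjusted p = 3.0e-27) and 2.14-fold in ATG7 KO (1.10, SE 0.0999, adjusted p = 2.3e-04). The responses differed by −1.07 (SE 0.122, adjusted p = 1.1e-04). In untreated cells it was already lower in ATG7 KO (−0.58, SE 0.102, adjusted p = 0.0086), a call that was lost without single libraries, as given above. The 17 genes tested within 1 Mb of TRAF1, measured between lowest coordinates, had a median of −0.65 in that comparison.

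TRAF4 is the family member best known from epithelial cells and development. Its level was 9.83, 9.99 and 8.50 FPKM in WT untreated and 48.0, 56.4 and 45.6 FPKM in WT with H2O2. In ATG7 KO it was 16.4, 14.0 and 13.0 FPKM untreated and 40.4, 39.3 and 38.8 FPKM with H2O2. ATG7 KO libraries lay above the WT libraries before treatment and below them after it, with no overlap at either time. The rise with H2O2 was 5.27-fold in WT (2.40, SE 0.0829, adjusted p = 8.1e-12), the largest among the 10 genes, and 2.72-fold in ATG7 KO (1.45, SE 0.106, adjusted p = 9.8e-05). The responses differed by −0.95 (SE 0.146, adjusted p = 7.0e-04). With H2O2, TRAF4 was lower in ATG7 KO (−0.35, SE 0.0612, adjusted p = 2.1e-04; 0.0163 with all 12 libraries in the fit). The untreated difference of 0.61 (SE 0.122) had an adjusted p of 0.0146 and passed under DESeq2 (adjusted p = 2.7e-04).

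TRAF2 binds TNF receptor complexes and recruits the cellular IAP ligases, and TRAF5 is its closest relative in function. TRAF5 was at 2.40, 3.04 and 2.58 FPKM in WT untreated and at 1.93, 1.76 and 1.83 FPKM in WT with H2O2. In ATG7 KO it was at 1.79, 2.02 and 2.23 FPKM untreated and at 2.20, 2.37 and 2.44 FPKM with H2O2. The WT groups did not overlap, whereas the ATG7 KO groups did. TRAF5 fell in WT with H2O2 (−0.54, SE 0.0952, adjusted p = 2.2e-06), and its value in ATG7 KO was 0.21 (SE 0.120, adjusted p = 0.199). The difference of responses was 0.75 (SE 0.159, adjusted p = 0.0045), and it did not pass without WT untreated replicate 2, any of the 3 WT H2O2 libraries, or ATG7 KO H2O2 replicate 2 or 3 (adjusted p = 0.0105 to 0.0147). With H2O2, TRAF5 was higher in ATG7 KO (0.34, SE 0.0895, adjusted p = 0.0016), but not with all 12 libraries in the fit (adjusted p = 0.0275) or without ATG7 KO H2O2 replicate 3 (adjusted p = 0.0109). A correction for gene length gave 0.19 (adjusted p = 0.0647) for this comparison and 0.47 (adjusted p = 0.0234) for the difference of responses, and TRAF5 has 9022 exonic bases.

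TRAF2 ranged from 20.6 to 21.9 FPKM in WT untreated, 21.4 to 25.1 in WT with H2O2, 19.5 to 25.0 in ATG7 KO untreated and 18.2 to 19.5 in ATG7 KO with H2O2. The highest untreated ATG7 KO value came from replicate 1. TRAF2 was lower in ATG7 KO than in WT with H2O2 (−0.29, SE 0.0540, adjusted p = 2.8e-05; 0.0307 with all 12 libraries in the fit). It passed in no other comparison.

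TRAF3 restrains the kinase NIK and so the non-canonical NF-κB pathway. It ranged from 8.57 to 9.28 FPKM in WT untreated, 9.30 to 9.69 in WT with H2O2, 5.77 to 8.60 in ATG7 KO untreated and 9.19 to 9.48 in ATG7 KO with H2O2. TRAF3 passed in none of the 5 tests, and its lowest value was again that of ATG7 KO untreated replicate 1. With a correction for gene length it passed in WT with H2O2 (0.29, adjusted p = 6.4e-06) and between ATG7 KO and WT with H2O2 (−0.16, adjusted p = 0.0038).

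TRAF6, the E3 ligase that acts below interleukin-1 and Toll-like receptors, ranged from 3.65 to 3.85 FPKM in WT untreated and from 4.86 to 5.63 in WT with H2O2. In ATG7 KO it ranged from 2.19 to 3.25 FPKM untreated and from 3.86 to 4.36 with H2O2. It rose in WT with H2O2 (0.48, SE 0.0875, adjusted p = 5.1e-06). Its value in ATG7 KO was 0.55 (SE 0.164, adjusted p = 0.0310), or 0.40 without replicate 1 of the untreated cells (adjusted p = 1.8e-04). The difference between both responses was 0.08 (SE 0.180, adjusted p = 0.769). With H2O2, TRAF6 was lower in ATG7 KO (−0.35, SE 0.0844, adjusted p = 5.0e-04; 0.0392 with all 12 libraries in the fit).

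MAP3K7 encodes TAK1, the kinase at the centre of the module. It ranged from 15.4 to 16.3 FPKM in WT untreated, 12.0 to 13.0 in WT with H2O2, 14.6 to 15.5 in ATG7 KO untreated and 11.8 to 13.5 in ATG7 KO with H2O2. Treated and untreated libraries did not overlap in either line. It fell in WT (−0.34, SE 0.0505, adjusted p = 9.3e-08), and its value in ATG7 KO was −0.27 (SE 0.0888, adjusted p = 0.0449; 2.8e-07 without replicate 1 of the untreated cells). Between ATG7 KO and WT with H2O2 the value was −0.02 (SE 0.0506). TAB1, the activating partner of TAK1, ranged from 8.04 to 8.75 FPKM in WT untreated and from 4.37 to 4.57 with H2O2. In ATG7 KO it ranged from 7.17 to 9.11 FPKM untreated and from 4.73 to 5.18 with H2O2. TAB1 fell with H2O2 in WT (−0.90, SE 0.0769, adjusted p = 2.1e-14) and in ATG7 KO (−0.69, SE 0.119, adjusted p = 0.0036). The call in ATG7 KO was lost without untreated replicate 3 or any H2O2 library of that line (adjusted p = 0.0120 to 0.0249).

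TAB2 and TAB3 are the homologous ubiquitin-binding partners of TAK1. TAB2 ranged from 31.6 to 36.8 FPKM over all 12 libraries and passed in none of the 5 tests. As given above, it passed between the untreated lines without ATG7 KO untreated replicate 1. With a correction for gene length, 9 of the 10 genes passed in WT with H2O2, so TRAF2, TAB2 or both were among them. TAB3 was at 5.27, 5.03 and 5.35 FPKM in WT untreated and at 9.79, 9.94 and 9.68 FPKM in WT with H2O2. In ATG7 KO it was at 5.44, 7.00 and 7.02 FPKM untreated and at 22.6, 21.6 and 21.6 FPKM with H2O2. The 4 groups did not overlap, and the ATG7 KO libraries with H2O2 stood apart from all others. With H2O2, TAB3 was 2.22-fold higher in ATG7 KO than in WT (log2 fold change 1.15, SE 0.0386, adjusted p = 6.5e-22). It rose 1.87-fold in WT (0.91, SE 0.0511, adjusted p = 8.4e-21) and 3.37-fold in ATG7 KO (1.75, SE 0.128, adjusted p = 9.8e-05), and the responses differed by 0.85 (SE 0.129, adjusted p = 6.7e-04). TAB3 has 12711 exonic bases, the most of the 10 genes. A correction for gene length gave 0.93 between the lines with H2O2 (adjusted p = 1.1e-19) and 0.42 for the difference of responses (adjusted p = 0.0026). With it, TAB3 also passed between the untreated lines (0.51, adjusted p = 0.0027) and rose by 1.20 in WT with H2O2. The further thresholds then left TRAF1 as the only one of the 10 genes between ATG7 KO and WT with H2O2.

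The ratio of TAB3 to TAB2 FPKM within a library needs no scaling between libraries. With 12711 exonic bases in TAB3 and 6010 in TAB2, a trend with gene length does not cancel in this uncorrected ratio. It was 0.148, 0.159 and 0.162 in WT untreated, 0.268, 0.275 and 0.272 in WT with H2O2, 0.155, 0.190 and 0.194 in ATG7 KO untreated, and 0.640, 0.594 and 0.599 in ATG7 KO with H2O2. The groups overlapped only between the untreated lines. The mean log2 ratio was higher by 1.17 in ATG7 KO than in WT with H2O2, by 0.80 with H2O2 in WT and by 1.77 with H2O2 in ATG7 KO (exact permutation test, two-sided, p = 0.10 for each, the smallest p that 3 against 3 libraries allow). Between the untreated lines the difference was 0.19 (exact permutation test, p = 0.30).

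Among the 6 TRAF genes, TRAF2 had the largest share of summed FPKM in untreated WT cells (33.8 ± 0.660%, SD, n = 3) and TRAF1 the largest in WT with H2O2 (45.7 ± 0.520%). In ATG7 KO with H2O2, TRAF4 held 40.1 ± 0.637% and TRAF1 24.5 ± 0.576%. The summed level of the 6 genes was 62.7 ± 0.968 FPKM in WT and 59.5 ± 1.99 in ATG7 KO before treatment, and 165 ± 15.3 and 98.4 ± 0.684 FPKM with H2O2. For TAK1 and the TAB genes the sum was 62.9 ± 2.40 and 65.6 ± 2.24 FPKM before treatment and 63.0 ± 1.07 and 75.3 ± 1.14 FPKM with H2O2. Within it, TAB3 made up 8.30 ± 0.269% in WT untreated, 15.6 ± 0.193% in WT with H2O2 and 29.1 ± 1.10% in ATG7 KO with H2O2.

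**Figure D4:**
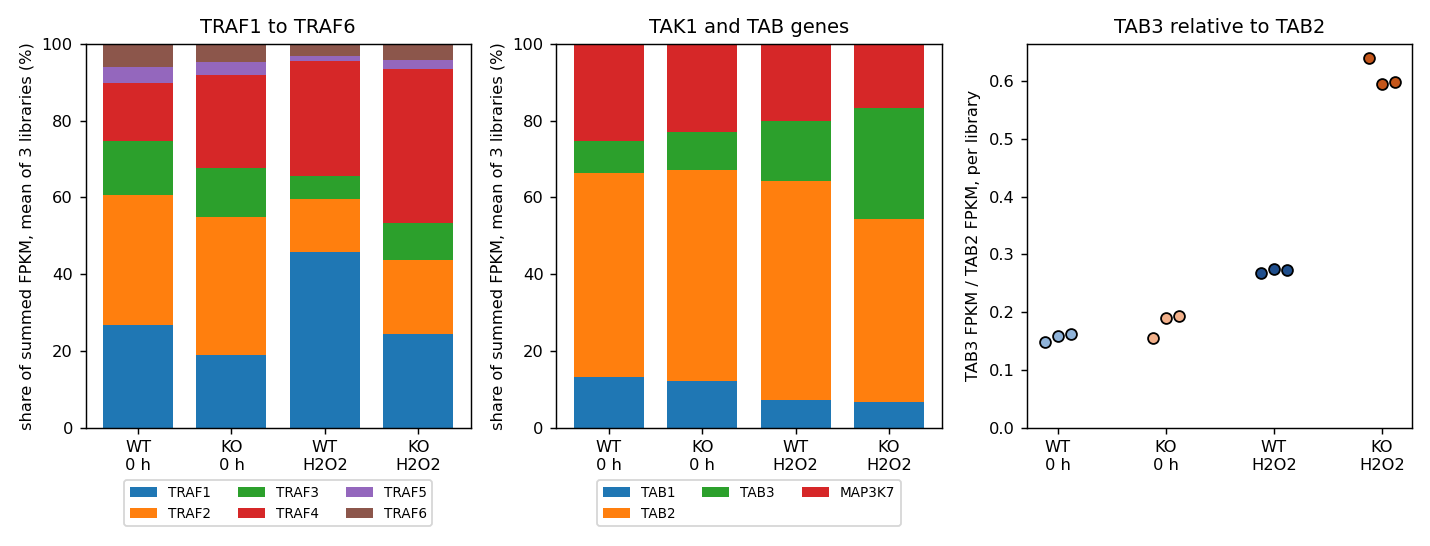
Mean share of summed FPKM (y axes, percent) held by each TRAF gene (left) and by TAK1 and the TAB genes (middle) in the 4 groups (x axes), and the ratio of TAB3 to TAB2 FPKM per library (right). The TRAF1 share is 45.7% in WT with H2O2 and 24.5% in ATG7 KO with H2O2, and the ratio lies between 0.594 and 0.640 in the latter and at or below 0.275 elsewhere.

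The genes around the module were taken as 7 lists with 93 genes, chosen with earlier results of these data known. Of these, 88 were tested between ATG7 KO and WT with H2O2. There 62 of 88 passed (70.5%), 36 higher and 26 lower, beside 55.6% of all genes, 27.7% higher and 27.9% lower. The median log2 fold change was 0.10 against −0.0022 over all genes tested. With all 12 libraries in the fit, 40 of the 88 passed, 25 higher and 15 lower, beside 4876 of 16856 genes, 2355 higher and 2521 lower. Of 11 interleukin-1 and Toll-like receptors and TGF-β receptors tested, 7 were higher and none lower, with a median of 0.92. Among those 7, IL18R1 (0.280 against 0.0866 FPKM) and TLR6 (0.853 against 0.264 FPKM) were below 1 FPKM in both groups. In this list TLR4, the receptor for lipopolysaccharide, changed most (3.65, SE 0.171, adjusted p = 3.5e-18; 1.43 ± 0.175 against 0.111 ± 0.0414 FPKM) and IL1RAP, the interleukin-1 co-receptor, least among those called (0.50, SE 0.0489). Of 10 TNF superfamily receptors tested, 5 were higher and 2 lower, from TNFRSF21 (1.04, SE 0.0526) to TNFRSF1B (−1.13, SE 0.367), the latter below 1 FPKM in both groups. With all 12 libraries in the fit, 4 of these receptors were higher and none lower.

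Of 15 adaptors upstream of TRAFs, 6 were higher and 5 lower, or 2 and 2 with all 12 libraries in the fit. TIRAP, which brings MYD88 to Toll-like receptors, was highest (0.74, SE 0.189) and TICAM1, the adaptor of TLR3, lowest (−0.88, SE 0.0708). SQSTM1, which encodes the autophagy receptor p62, was at 52.4 ± 0.761 FPKM in ATG7 KO and 54.2 ± 1.33 in WT with H2O2 (−0.06, SE 0.0337, adjusted p = 0.144), and was named after its values were seen. Of 12 ubiquitin ligases and conjugating enzymes, 2 were higher and 4 lower (2 and 2 with all 12 libraries), from RNF31, the catalytic subunit of the linear ubiquitin ligase (0.84, SE 0.0938), to BIRC2, a cellular IAP (−0.66, SE 0.0421). Of 12 deubiquitinases and inhibitors, 5 were higher and 5 lower, or 4 and 3 with all 12 libraries. The E3 ligase ITCH was highest (0.77, SE 0.0426) and CYLD, which removes K63-linked chains, lowest (−0.71, SE 0.0507). Of 16 kinases downstream of TAK1 and TRAFs, 8 were higher and 3 lower (4 and 3 with all 12 libraries), from MAP3K5, which encodes ASK1 (1.34, SE 0.165), to MAP2K3, a p38 activator (−1.12, SE 0.0613).

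Of 12 NF-κB feedback targets, 3 were higher and 7 lower in ATG7 KO with H2O2. The cytokine IL6 was highest (0.83, SE 0.0422; 115 ± 4.43 against 64.2 ± 3.40 FPKM) and NFKB1, the p105/p50 subunit, lowest (−0.89, SE 0.0502; 16.7 ± 0.373 against 30.7 ± 2.77 FPKM). In WT with H2O2, 9 of the 11 tested rose and 2 fell, with a median of 0.97, beside 30.9% of all genes that rose and 30.1% that fell. In ATG7 KO with H2O2, 1 of 12 rose and 2 fell, with a median of 0.16, beside 13.6% and 12.4% of all genes. Without ATG7 KO untreated replicate 1, 6 of the 12 rose and 4 fell, where 4768 of 16002 genes rose and 4573 fell. In untreated cells, 4 of 11 were higher in ATG7 KO and none lower, beside 4.42% and 3.28% of all genes. Without that library 9 of 11 were higher, beside 2891 of 15848 genes. The difference of responses passed for 9 of 12, all with a smaller value in ATG7 KO, beside 14% of all genes that passed and 7.01% with a smaller value. The list median was −1.15 against −0.03 over all genes tested. Without ATG7 KO untreated replicate 1, 10 of 12 passed with a smaller value, beside 2852 of 17543 genes. With a correction for gene length 9 of 12 did, beside 1389 of 16856 genes. With all 12 libraries in the fit, 7 of the 12 passed between the lines with H2O2, 2 higher and 5 lower, beside 4876 of 16856 genes.

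**Figure D5:**
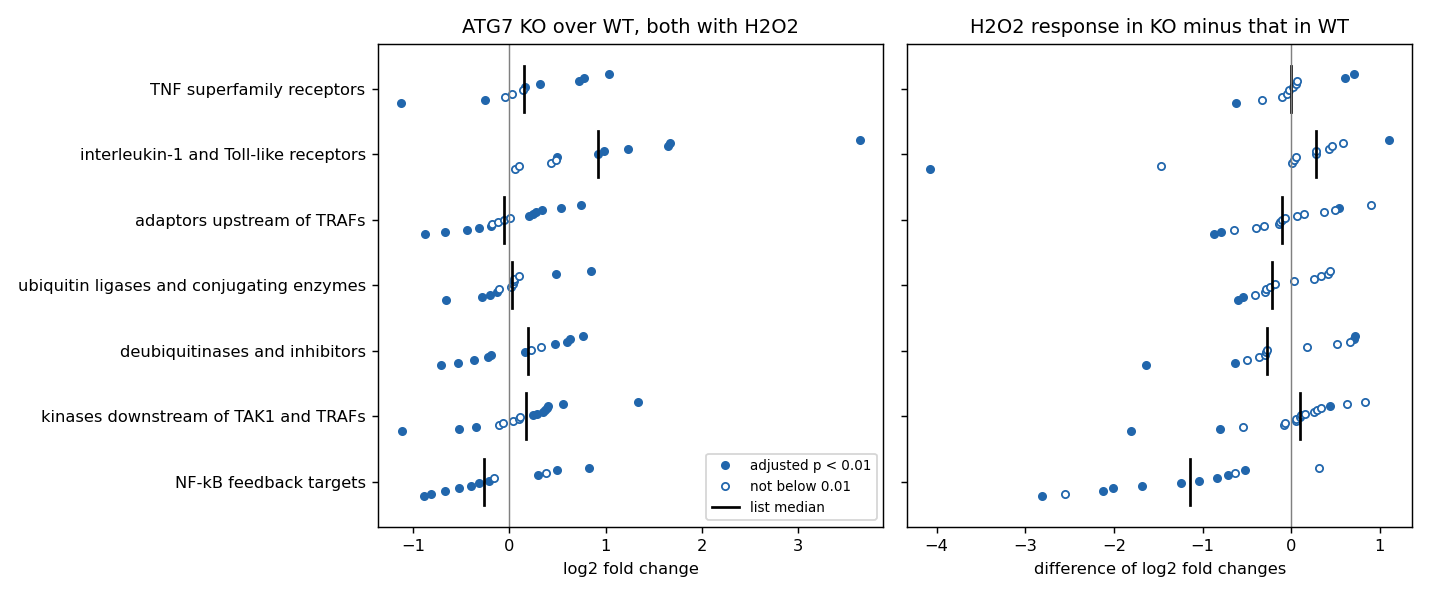
log2 fold change of the genes of 7 lists between ATG7 KO and WT with H2O2 (left) and the difference of their H2O2 responses, ATG7 KO minus WT (right). Points are genes, filled where the adjusted p was below 0.01, and vertical bars are list medians. The median of the NF-κB feedback targets lies at −0.27 on the left and −1.15 on the right.

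For the other 6 lists, the genes that passed in the test of the difference were 3 of 10 TNF superfamily receptors, 2 of 11 interleukin-1, Toll-like and TGF-β receptors, 3 of 15 adaptors, 2 of 12 ubiquitin enzymes, 4 of 12 deubiquitinases and inhibitors and 3 of 16 kinases, beside 14% of all genes. When ATG7 KO untreated replicate 1 was left out, these counts became 3 of 10, 4 of 11, 8 of 15, 5 of 12, 9 of 12 and 6 of 16. The count over all genes rose as well, to 5974 of 17543. With H2O2, 9 of 10 TNF superfamily receptors tested rose in WT and 6 of 9 in ATG7 KO, and none fell in either line, beside 30.9% and 13.6% of all genes that rose. With that library left out, 8 of 10 rose in ATG7 KO, beside 4768 of 16002 genes. Their median log2 fold changes were 0.95 and 1.04. In untreated cells 15 of 85 tested list genes passed (17.6%), 15 higher in ATG7 KO and 0 lower, beside 7.7% of all genes, 4.42% higher and 3.28% lower. With all 12 libraries in the fit 30 list genes passed, 25 higher and 5 lower, beside 3154 of 16856 genes, 1665 higher and 1489 lower. When replicate 1 of the untreated ATG7 KO cells was left out, 45 passed, 36 higher and 9 lower, and the ubiquitin enzymes went from 0 to 9 of 12. The count over all genes then was 5734 of 15848, 2891 higher and 2843 lower.

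Each gene was also set against its surroundings, with distances taken between the lowest coordinates of the genes on either strand. Within 1 Mb of TAB3, 4 genes were tested between ATG7 KO and WT with H2O2, and 3 were higher: DMD (0.95), GK (1.24) and AC112496.1 (1.15). The GK gene, which encodes glycerol kinase, also rose with H2O2 in WT (0.54) and in ATG7 KO (1.84), and its responses differed by 1.30 (SE 0.145, adjusted p = 1.0e-04). DMD did not share this pattern and fell in WT with H2O2 (−0.81). These neighbours were named after their values were seen. Over all genes, 27.7% were higher and 27.9% lower in this comparison. Around TRAF1, 11 of 16 genes were lower and 3 higher between the lines with H2O2 (median −0.26), and around TRAF2, 49 of 72 were lower and 6 higher (median −0.51). TRAF2 itself stood at −0.29, nearer to 0 than the median of its neighbours. Around TRAF2, 1 of 64 genes was lower and 0 higher between the untreated lines (median −0.15), and TRAF2 itself stood at 0.02. Between the untreated lines, 4 of 17 genes around TRAF1 were lower and 0 higher, beside 3.28% and 4.42% of all genes. Their median was −0.65, and TRAF1 itself stood at −0.58, nearer to 0 than that median.

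In the deposited coordinates 12 genes overlapped a member, and 2 of them reached a mean of 10 counts in a group. MIR4479 lies within TRAF2 on the same strand, with means of 6.33 to 10.7 counts per group. AC010761.4 lies across TRAF4 on the opposite strand, with means of 7 to 23 counts per group, against at least 694 counts of TRAF4 in every library. Whether the counting used strand is not given in the sources used here, so reads of TRAF4 and its antisense gene cannot be told apart.

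The genes whose log2 CPM followed each member most closely over the 12 libraries were found among 10939 genes above 1 FPKM in all 4 groups. The 12 points fall into 4 groups, so these values of Pearson r describe the group pattern. TRAF4 was followed by RHOB, a stress-induced small GTPase (r = 0.997; 14.3 FPKM in WT untreated, 138 in WT with H2O2, 24.6 in ATG7 KO untreated and 101 in ATG7 KO with H2O2). TAB3 was followed by SLC12A2, the Na-K-Cl cotransporter (r = 0.997; 3.64, 6.37, 4.37 and 11.4 FPKM in the same order). TRAF1 was followed by SLC25A25, a mitochondrial carrier (r = 0.991; 4.93, 18.1, 4.19 and 7.72 FPKM in the same order). TAB1 was followed by TIMELESS, a replication fork protein (r = 0.990), TRAF6 by ZNF275 (0.984), TRAF3 by PRRC2B (0.983) and MAP3K7 by SEPHS1 (0.962). TRAF2 was followed by B3GAT3 (0.935), TRAF5 by PRKAA2 (0.929) and TAB2 by HS3ST3A1 (0.830). Among the members themselves, the closest pairs were TAB1 with MAP3K7 (0.897) and TRAF1 with TRAF6 (0.885).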

How the data were processed

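Total RNA was extracted by the authors and libraries were made with the NEBNext Ultra RNA kit. The deposited gene counts, 58735 genes by 12 libraries, are not normalized, and the submitters' processing notes name HISAT2 2.0.5, featureCounts 1.5.0-p3 and GRCh38. The deposited FPKM values divide those counts by gene length and by reads, with 1 further factor per library. Replicates are separate libraries that the study calls biological, and p-values measure the spread between them.

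Counts were tested with edgeR 4.0.16 (R 4.3.3; filterByExpr with a minimum of 10, TMM, robust quasi-likelihood test), each pair of groups in its own fit of 6 libraries and the difference of responses in a fit of all 12, with Benjamini-Hochberg adjustment over all genes tested and a threshold of 0.01. The further thresholds were an absolute log2 fold change above 1 and a mean FPKM above 1 in 1 of both groups. SE are those of the log2 fold change. Correction for gene length used an offset from a lowess curve (span 0.3). The test between the lines with H2O2 and that of the difference were run on simulated counts with a biological coefficient of variation of 0.05. The values fitted to the data were 0.0416 and 0.120, so the simulation was less noisy than the data for the difference of responses. The comparisons with untreated ATG7 KO cells (0.162 and 0.161) were not simulated. Alternatives were DESeq2 1.42.0, RLE scaling, no filter, all 12 libraries in the fit, limma 3.58.1 on log2(FPKM + 1) and log2(FPKM + 0.1), a replicate block, an adjusted p of 0.05 and each library left out. The list counts under 3 of these settings were added after seeing the data.

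All 10 members are named. Of each list, the genes with the highest and lowest change among those called between ATG7 KO and WT with H2O2 are named, and for each member the gene with the highest r and overlapping genes with a mean of at least 10 counts in a group. Members and lists were chosen with earlier results of these data known. Promoter sequences are from RefSeq (GRCh38.p14; all 10 members matched), at the start nearest to that of the deposited table.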

Additional observations from a re-analysis of the deposited data

Results flagged for a closer look

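The H2O2 response of 4 genes differed between ATG7 KO and WT cells in a test of the difference itself (edgeR, all 12 libraries). For TRAF1 the response in ATG7 KO minus that in WT was −1.07 on the log2 scale, for TRAF4 −0.95, for TAB3 0.85 and for TRAF5 0.75. The TRAF1, TRAF4 and TAB3 differences passed under every alternative run, and the TRAF5 difference did not pass with the correction for gene length or without 6 single libraries.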

How the results depend on the processing

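Of 22 member changes called, none changed sign under any alternative. Between ATG7 KO and WT with H2O2, 2 members were called with all 12 libraries in the fit, and 1 passed the further thresholds with the gene length offset. Between untreated lines, 2 were called by DESeq2, without a filter, with all 12 libraries and at an adjusted p of 0.05, 3 with the length offset, and 0 to 5 with 1 library left out. In that comparison 0 members were called with a replicate block. Same-numbered libraries showed little shared deviation (r −0.067 to 0.091 over 18 pairs). With 3 libraries in a group this cannot settle whether the numbers mark pairs, which the labels do not say. The paired value of the TAB3 to TAB2 ratio with H2O2 was 1.17 (exact sign-flip permutation, p = 0.25, the smallest possible). The H2O2 count in ATG7 KO ranged from 3 to 7 with 1 library left out.

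Sign changes touched members near 0 that were not called. Between the lines with H2O2, TAB2 was 0.016 and MAP3K7 0.0087 without a filter, and with 1 library left out TAB2 ranged from −0.026 to 0.0073 and MAP3K7 from −0.064 to 0.027. Between untreated lines, the length offset gave TRAF2 −0.033 and MAP3K7 0.0077, and with 1 library left out TRAF2 ranged from −0.093 to 0.084 and TAB1 from −0.16 to 0.019. With H2O2 in ATG7 KO, TAB2 was 0.00078 by DESeq2, 0.00084 with RLE scaling and −0.037 to 0.0061 with 1 library left out. In the difference of responses, the length offset gave TRAF3 −0.021 and MAP3K7 −0.12, and TRAF6 ranged from −0.064 to 0.21 with 1 library left out. Of all genes, 1182 were called between untreated lines, against 2511 by DESeq2, 3154 with all 12 libraries, 1808 with the length offset, 499 with a replicate block and 287 to 5734 with 1 library left out. With all 12 libraries, 4876 instead of 8847 were called between the lines with H2O2 and 6528 instead of 4025 with H2O2 in ATG7 KO. For the difference of responses, 2366 were called, against 3703 by DESeq2, 4054 without a filter and 1332 to 5974 with 1 library left out. With 1 library left out, 1767 to 9341 were called with H2O2 in ATG7 KO. The cause of these shifts was not tested.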
